A study of Rattus norvegicus with 9 samples.

Results

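The neddylation genes described here are the 10 rat genes Nedd8, Nae1, Uba3, Ube2m, Ube2f, Dcun1d1, Rbx1, Cul3, Senp8 and Cops5. They were picked by gene symbol from a deposited count table of 37991 genes, and all 10 had enough reads to be among the 18047 genes tested. Nedd8 entered the set because of its difference between Ketamine and Control libraries in earlier results of these data, and the other 9 because of their roles beside it. RNA sequencing was done on the medial prefrontal cortex (mPFC) of Wistar Kyoto rats, an inbred strain used in depression research, at day 15. K4 rats received the compound K4, known here only by its code name, through an intravenous cannula for 7 days. Ketamine rats received ketamine, an NMDA receptor blocker with antidepressant effects, subcutaneously for 7 days. Both treatments were followed by 7 days of withdrawal, and Control rats received no treatment. Each group had 3 libraries. The labels record no dose, sex, age, vehicle or sham cannula, so compound and route cannot be told apart, and they do not say that libraries came from separate animals. The p-values therefore reflect library-to-library spread alone, which may be technical. The series title poses the question of which RNA changes accompany antidepressant effects that last beyond dosing.

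Neddylation attaches the ubiquitin-like protein NEDD8 to lysines of target proteins, above all the cullins, the scaffolds of a large class of ubiquitin ligases. NEDD8 is activated by the heterodimeric E1 enzyme of NAE1 and UBA3, passed to the E2 enzymes UBE2M or UBE2F, and placed on a cullin with the help of a DCN1-like protein such as DCUN1D1 and a RING protein such as RBX1. The COP9 signalosome, whose catalytic subunit is COPS5, removes it again and so resets the ligase, while SENP8 trims the NEDD8 precursor. In neurons, neddylation has been linked to spine development and synapse maturation.

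Promoter windows of 300 bases, reaching 250 before to 50 after the gene start, were found for 8 of the 10 genes in the RefSeq table of build GRCr8 (all but Cops5 and Cul3). Words of 4 factors, chosen after the sequences had been read, were looked up on both strands: the E-box CACGTG, the NRF1 word (TGCGCA and GCGCA with 1 base of any kind between them), the YY1 word ATGGCGG and the ETS word CCGGAAG. The windows of Nedd8, the gene with the largest difference described below, of Rbx1, the member whose level most resembled it over libraries, and of Ube2m, which holds the same long word as Rbx1, are shown. Capitals mark the E-box in Nedd8, the NRF1 word in Rbx1 and Ube2m, and the YY1 word in Rbx1. The windows lie at chr15:33135473-33135772 on the minus strand for Nedd8, chr7:114870729-114871028 on the plus strand for Rbx1, and chr1:82738249-82738548 on the minus strand for Ube2m.
Nedd8: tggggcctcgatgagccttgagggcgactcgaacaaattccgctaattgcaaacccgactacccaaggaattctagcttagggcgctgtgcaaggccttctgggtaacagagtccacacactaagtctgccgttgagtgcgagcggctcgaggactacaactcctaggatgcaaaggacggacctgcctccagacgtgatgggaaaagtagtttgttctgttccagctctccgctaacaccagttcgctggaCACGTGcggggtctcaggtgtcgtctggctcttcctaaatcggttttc
Rbx1: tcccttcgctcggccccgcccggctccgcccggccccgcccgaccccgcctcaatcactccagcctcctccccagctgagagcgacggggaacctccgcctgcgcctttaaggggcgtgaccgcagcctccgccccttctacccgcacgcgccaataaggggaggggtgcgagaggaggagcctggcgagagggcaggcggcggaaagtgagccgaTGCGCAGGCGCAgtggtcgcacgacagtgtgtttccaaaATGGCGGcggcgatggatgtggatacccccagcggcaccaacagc
Ube2m: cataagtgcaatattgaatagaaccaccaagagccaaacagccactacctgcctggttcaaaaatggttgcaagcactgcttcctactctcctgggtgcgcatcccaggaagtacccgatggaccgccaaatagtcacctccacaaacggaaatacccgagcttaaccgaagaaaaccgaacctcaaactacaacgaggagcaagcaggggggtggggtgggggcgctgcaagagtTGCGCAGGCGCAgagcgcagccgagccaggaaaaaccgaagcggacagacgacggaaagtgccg
Counted from the 5' end of each window, the E-box began at base 253 in Nedd8. The NRF1 word began at base 217 in Rbx1 and at base 237 in Ube2m. The YY1 word of Rbx1 began at base 256. The E-box was found in 2 of the 8 windows (Nedd8 and Senp8), against 6.42% of 33469 promoters of the same length. The NRF1 word was found in 3 of 8 (Rbx1, Senp8 and Ube2m), against 1.04%, and the YY1 word in 2 of 8 (Rbx1 and Uba3), against 4.80%. The ETS word was found in 1 of 8 (Ube2f), against 8.75%. GC content was 54.7% in the Nedd8 window, 70.0% in Rbx1 and 55.3% in Ube2m, and its median over all promoters was 51.7%. Because the words were chosen after these sequences had been read, the shares among the 8 windows are a description with no test. These matches describe letters only and bear on no factor's binding.

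Levels between genes were compared in the deposited TPM, which are per length and per library. Nedd8 had the highest mean level of the 10 genes over the 9 libraries, 193.7 TPM, followed by the E2 gene Ube2m at 160.6 TPM. Next came Rbx1 at 98.6 TPM, Cops5 at 76.6 TPM, Cul3 at 72.2 TPM and Uba3 at 53.7 TPM. Ube2f (35.03 TPM), Dcun1d1 (32.8 TPM) and Nae1 (26.1 TPM) were lower, and Senp8 was lowest at 7.17 TPM. The order held between Nedd8, Ube2m and Rbx1 in every K4 and Ketamine library, but in Control libraries Nedd8 spanned 121.4 to 161.1 TPM and enclosed the Ube2m range of 140.4 to 143.0 TPM. Cops5 and Cul3 were closer than their spread in Control libraries, where Cul3 averaged 74.0 ± 13.2 TPM and Cops5 65.5 ± 13.1 TPM (SD, n = 3). Ube2f and Dcun1d1 overlapped in Ketamine and Control libraries, while in K4 libraries Ube2f (36.0 to 42.9 TPM) lay above Dcun1d1 (32.1 to 34.2 TPM). The catalytic E1 subunit Uba3 stood above its partner Nae1 in every library, with a TPM ratio of 2.13 ± 0.14 in K4, 2.07 ± 0.201 in Ketamine and 1.99 ± 0.0908 in Control libraries (SD, n = 3 each). Of the 2 E2 genes, Ube2m, which serves cullins paired with RBX1, exceeded Ube2f, which serves CUL5 paired with RNF7, by a TPM ratio of 4.42 ± 0.462 in K4, 5.03 ± 0.258 in Ketamine and 4.39 ± 0.453 in Control libraries.

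**Figure D1:**
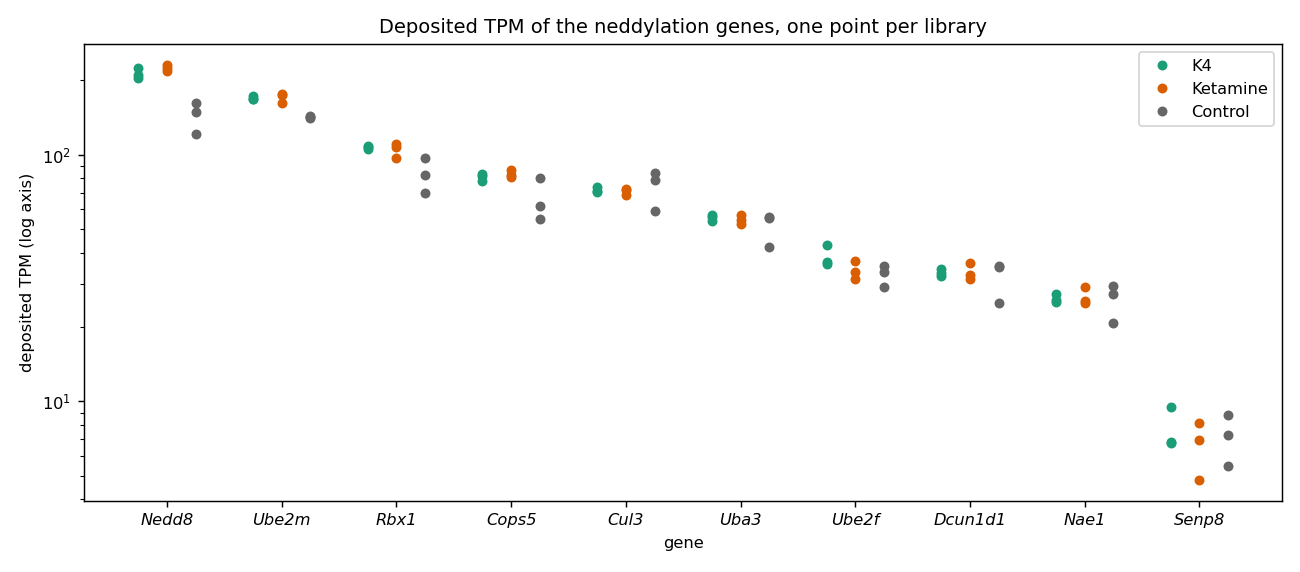
Deposited TPM (log axis) of the 10 neddylation genes, ordered by mean level, with 1 point per library and K4, Ketamine and Control side by side for each gene. Nedd8 and Ube2m lead in all groups and Senp8 is lowest, and the Control points of Nedd8, at 121.4 to 161.1 TPM, lie below all K4 and Ketamine points.

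Comparisons within a gene used TMM-scaled CPM, reads relative to library size. Nedd8, the modifier itself, had 75.9, 77.9 and 80.6 CPM in K4 libraries, 85.4, 85.9 and 84.4 CPM in Ketamine libraries and 60.4, 57.4 and 60.2 CPM in Control libraries. All 6 libraries of treated rats lay above all 3 Control libraries, and the Ketamine libraries lay above the K4 libraries. The group means were 78.2 ± 2.34 CPM in K4, 85.2 ± 0.767 CPM in Ketamine and 59.3 ± 1.67 CPM in Control libraries (SD, n = 3 each). The fitted log2 fold change was 0.40 for K4 against Control (SE 0.053, 95% interval 0.28 to 0.51), a fold of 1.32. It was 0.52 for Ketamine against Control (SE 0.053, interval 0.41 to 0.64), a fold of 1.44. For K4 against Ketamine it was -0.13 (interval -0.24 to -0.010), or -0.054 with an offset for transcript length, and Nedd8 was not called there. Of all genes tested, 17.8% had K4 and Ketamine libraries that did not overlap (8.29% lower in K4). Since Nedd8 was chosen for this difference and the comparisons share libraries, these values are a description with no test. Over fits that each left out 1 of the 9 libraries, the Nedd8 log2 fold change kept within 0.37 to 0.43 for K4 and 0.50 to 0.55 for Ketamine, both against Control. Its within-group SD of log2 CPM, 0.035, was the smallest of the 10 genes, against a median of 0.144 over all genes tested, and 2208 to 2916 reads lay behind each library's value. The ranges and this SD come from the libraries in which Nedd8 was chosen, so they too are a description and no separate evidence.

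**Figure D2:**
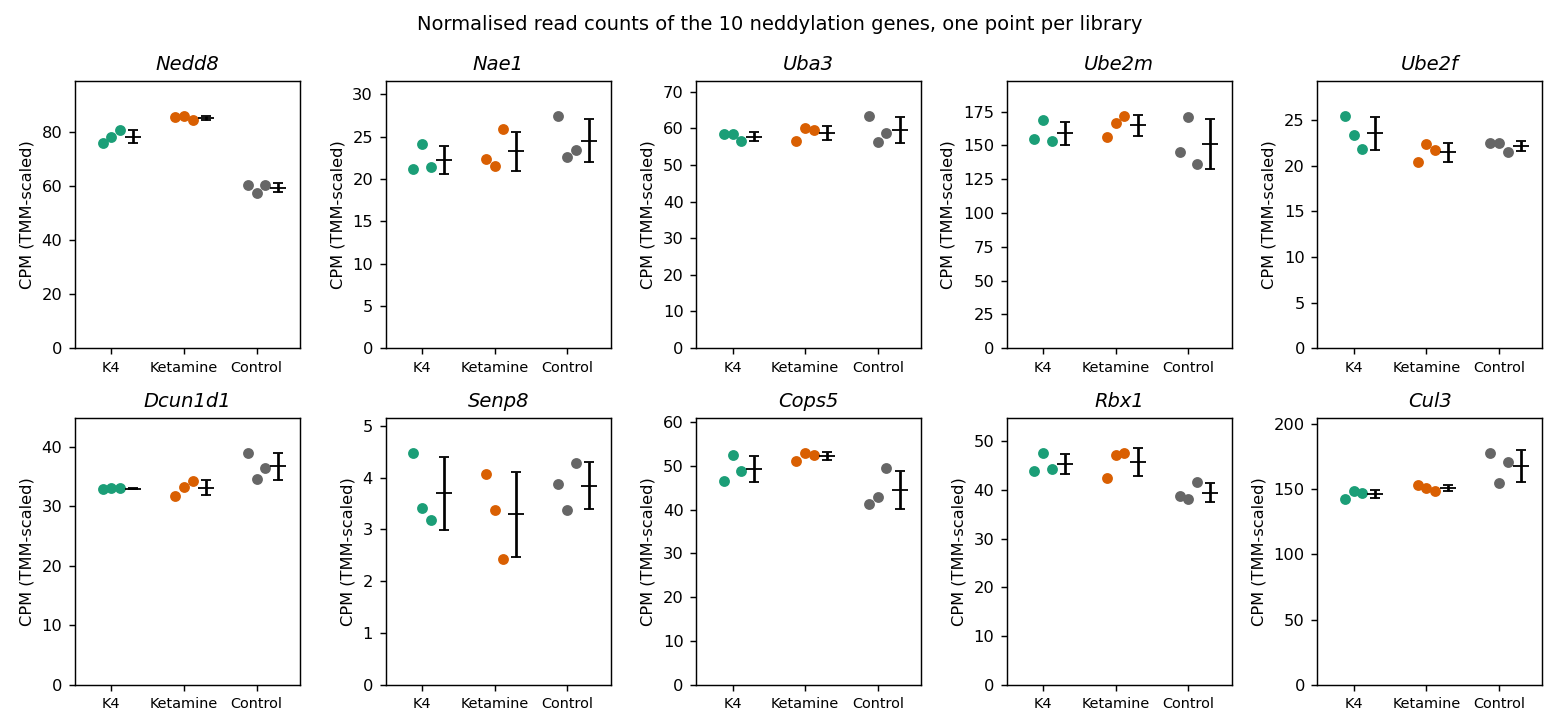
TMM-scaled CPM of each neddylation gene (axis from 0, own scale per gene), with 1 point per library and the mean ± SD of the 3 libraries beside each group. Nedd8 separates into K4 (75.9 to 80.6 CPM), Ketamine (84.4 to 85.9 CPM) and Control (57.4 to 60.4 CPM), while most other genes overlap between groups.

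A gene counted as called at an edgeR quasi-likelihood p below 0.05 after Benjamini-Hochberg adjustment over all 18047 genes. For K4 against Control, 0 of the 9 genes other than Nedd8 were called, against a background of 6.07% of all genes tested. At an unadjusted edgeR p below 0.05 there were 3 (Dcun1d1, Rbx1 and Cul3), against 4245 of all 18047 genes tested. DESeq2 called 1 (Cul3), against 1839 of the 18047. For Ketamine against Control, 2 of the 9 were called, both higher (Cops5 and Rbx1), which is 22.2% against a background of 16.7%. DESeq2 also called 2, against 3587 of the 18047 genes. For K4 against Ketamine edgeR called 0 of the 9, against a background of 0%. At an unadjusted edgeR p below 0.05 there were 0 of the 9, against 1648 of the 18047 genes. DESeq2 called 0 of the 9 there, against 71 of the 18047. The median log2 fold change over all 10 genes was 0.016 for K4 against Control, -0.034 for Ketamine against Control and -0.034 for K4 against Ketamine. Over all genes tested these medians were -0.005, -0.002 and 0.002.

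Among the 9 genes, 3 had K4 and Control libraries that did not overlap in CPM (Rbx1 higher, Dcun1d1 and Cul3 lower in K4), where 27.5% of all genes tested did so (13.3% higher and 14.2% lower in K4). For Ketamine and Control there were 4 (Cops5 and Rbx1 higher, Dcun1d1 and Cul3 lower in Ketamine), against 35% of all genes (16.9% higher and 18.1% lower in Ketamine). For K4 and Ketamine there were 0, against 17.8% (9.49% higher and 8.29% lower in K4).

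The E1 genes gave no call in any comparison. Nae1, the regulatory subunit, had 21.2, 24.1 and 21.4 CPM in K4, 22.4, 21.5 and 25.9 CPM in Ketamine and 27.5, 22.6 and 23.5 CPM in Control libraries. The groups overlapped, with Control replicate 1 the highest library. Its log2 fold change was -0.14 (SE 0.099) for K4 and -0.075 (SE 0.098) for Ketamine against Control, with edgeR adjusted p of 0.417 and 0.645. Uba3, the catalytic subunit, had 58.4, 58.4 and 56.5 CPM in K4, 56.6, 60.0 and 59.4 CPM in Ketamine and 63.4, 56.3 and 58.8 CPM in Control libraries. These groups overlapped as well. Its log2 fold change was -0.043 (SE 0.060) for K4 and -0.021 (SE 0.060) for Ketamine against Control, with edgeR adjusted p of 0.722 and 0.853.

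The E2 genes were not called either. Ube2m had 154.5, 168.9 and 153.3 CPM in K4, 156.6, 166.7 and 171.9 CPM in Ketamine and 145.4, 171.4 and 136.1 CPM in Control libraries. Control replicate 2 lay among the libraries of treated rats and the other two Control libraries below all of them. The log2 fold change was 0.074 (SE 0.081, edgeR adjusted p 0.63) for K4 and 0.13 (SE 0.081, edgeR adjusted p 0.304) for Ketamine against Control. Without Control replicate 2 the Ketamine value was 0.23 (SE 0.062) and was called, with an edgeR adjusted p of 0.0198. Ube2f had 25.5, 23.4 and 21.9 CPM in K4, 20.4, 22.4 and 21.7 CPM in Ketamine and 22.6, 22.5 and 21.5 CPM in Control libraries. K4 replicate 1 was the highest and the groups overlapped. Its log2 fold change for K4 against Ketamine, 0.14 (interval -0.037 to 0.31), had an edgeR adjusted p of 0.648.

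Rbx1, the RING subunit that recruits the E2 enzyme to CUL1 to CUL4 ligases, had 43.9, 47.7 and 44.3 CPM in K4, 42.5, 47.1 and 47.6 CPM in Ketamine and 38.7, 38.1 and 41.7 CPM in Control libraries. Every library of treated rats lay above every Control library. It rose in Ketamine by a log2 fold change of 0.21 (SE 0.068, interval 0.065 to 0.36, edgeR adjusted p 0.0494). This adjusted p lay close to the threshold. The call remained in 2 of the 9 fits that left out a library (without Control replicate 3 and without Ketamine replicate 1) and in 2 of 9 other alternatives, and with the length offset the value was 0.032 (edgeR adjusted p 0.821). In K4 the Rbx1 log2 fold change against Control was 0.20 (SE 0.068, interval 0.051 to 0.35), with an edgeR adjusted p of 0.101, and Rbx1 was called there only without Control replicate 3, at 0.0483. The K4 and Ketamine means of 45.3 ± 2.08 CPM and 45.7 ± 2.84 CPM differed by less than their SD (n = 3 each).

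Dcun1d1, a co-E3 that speeds cullin neddylation, had 32.9, 33.0 and 33.1 CPM in K4, 31.8, 33.3 and 34.3 CPM in Ketamine and 39.0, 34.6 and 36.5 CPM in Control libraries. The Control libraries were above all 6 others. The log2 fold change was -0.15 in both drug groups (SE 0.066), with edgeR adjusted p of 0.177 for K4 and 0.145 for Ketamine. Cul3, the cullin that binds BTB-domain adaptors, had 142.4, 148.4 and 147.2 CPM in K4, 153.0, 151.0 and 148.3 CPM in Ketamine and 177.9, 154.3 and 170.9 CPM in Control libraries. Its lowest Control library, replicate 2, exceeded the highest Ketamine library by less than the SD of either group. The log2 fold change was -0.20 for K4 (SE 0.061, interval -0.33 to -0.069, edgeR adjusted p 0.0688) and -0.15 for Ketamine (SE 0.061, edgeR adjusted p 0.0993). Without Control replicate 2, Cul3 was called lower in both, at -0.26 (edgeR adjusted p 0.00668) for K4 and -0.21 (edgeR adjusted p 0.0108) for Ketamine.

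The genes that remove NEDD8 differed in abundance and in spread. Cops5 had 46.6, 52.5 and 48.8 CPM in K4, 51.1, 53.0 and 52.5 CPM in Ketamine and 41.4, 42.7 and 49.4 CPM in Control libraries. All Ketamine libraries were above all Control libraries, while Control replicate 3 lay within the K4 range. Cops5 rose in Ketamine by a log2 fold change of 0.23 (SE 0.074, interval 0.070 to 0.39, edgeR adjusted p 0.0499), next to the threshold. Of the 9 fits that left out a library, 1 kept this call (without Control replicate 3), and the highest edgeR adjusted p was 0.163. Of 9 other alternatives 3 kept it, and with the length offset the value was 0.10 (edgeR adjusted p 0.439). In K4 the Cops5 log2 fold change against Control was 0.15 (SE 0.074, edgeR adjusted p 0.25), and it was called only without Control replicate 3, at 0.0427. Senp8 rested on 84 to 173 reads a library and had 4.48, 3.42 and 3.17 CPM in K4, 4.07, 3.38 and 2.43 CPM in Ketamine and 3.87, 3.38 and 4.28 CPM in Control libraries. The groups overlapped. Its within-group SD of log2 CPM, 0.278, was the largest of the 10 genes, and the interval for K4 against Control ran from -0.50 to 0.39.

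For K4 against Ketamine, the log2 fold changes of the 9 genes other than Nedd8 ran from -0.083 (Cops5) to 0.17 (Senp8), with edgeR adjusted p between 0.648 and 0.985. The interval was -0.28 to 0.62 for Senp8, the widest of them. These intervals limit the size of any difference between the 2 drug groups and do not show that the drugs act alike.

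**Figure D3:**
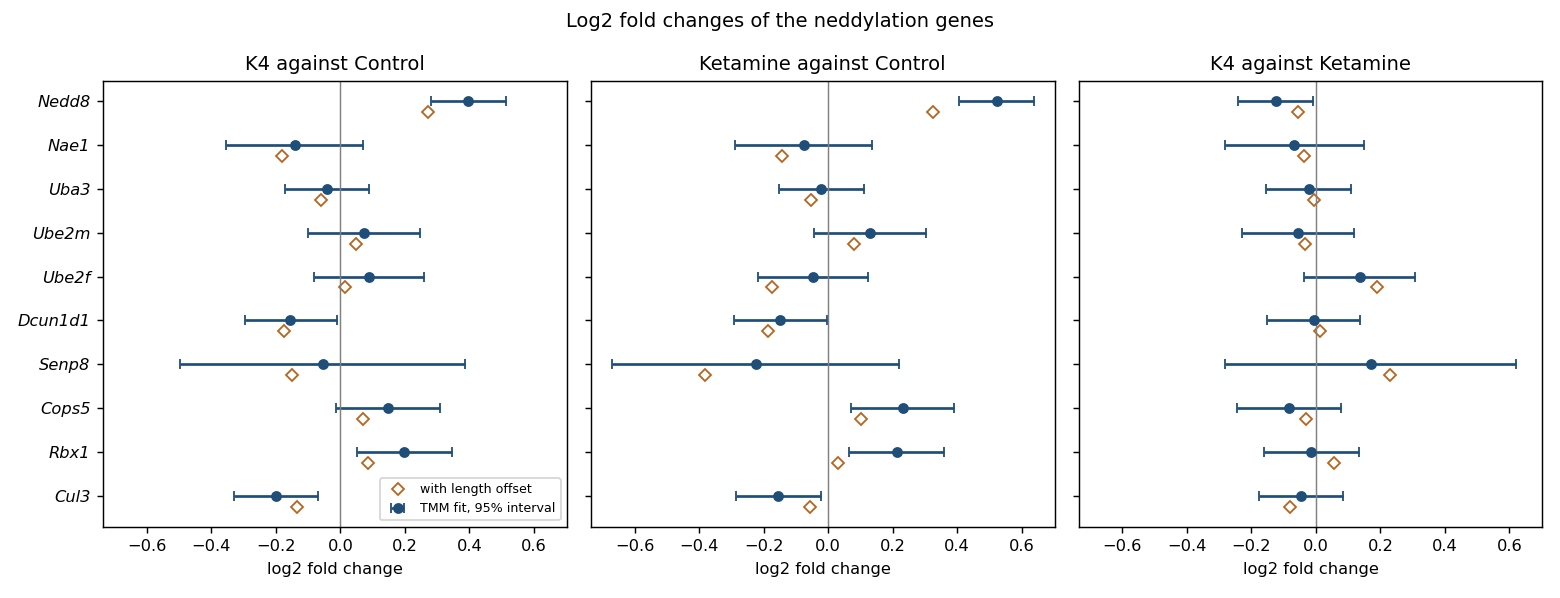
Log2 fold change of each neddylation gene in 3 panels, K4 against Control, Ketamine against Control and K4 against Ketamine, with 95% intervals from the edgeR fit (filled points) and the value after a length offset (open diamonds). Nedd8, which was chosen for its difference between Ketamine and Control, lies at 0.40 for K4 and 0.52 for Ketamine against Control. Its offset values are 0.27 and 0.33.

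Transcript length moved with the log2 fold changes of all genes. Lengths implied by the deposited counts and FPKM placed Nedd8 (0.878 kb), Rbx1 (1.01 kb) and Senp8 (1.151 kb) in the shortest of 10 equal length classes of the genes tested, and Cul3 (4.86 kb) in class 8. In the shortest class, of 1805 genes, the median log2 fold change was 0.13 for K4 and 0.21 for Ketamine against Control. In the longest class it was -0.15 for K4 and -0.23 for Ketamine. The Ketamine value of Rbx1 equals its class median to 2 decimals, and Nedd8 lay above that median in both comparisons. With an offset that takes out the length trend of each library, the Nedd8 log2 fold change was 0.27 (SE 0.059) for K4 and 0.33 (SE 0.059) for Ketamine against Control. Nedd8 was chosen for its difference in these libraries. Its place above the class median and its offset values are therefore a description with no test. With the same offset, Cul3 had -0.14 for K4 (edgeR adjusted p 0.231), and neither Rbx1 nor Cops5 was called, among 7.62% of all genes called for Ketamine and 2.38% for K4. For Ketamine against Control with the offset, Cul3 had -0.055 (edgeR adjusted p 0.63) and Ube2m 0.081, both nearer 0 than without it. Nae1 (-0.14), Uba3 (-0.053), Ube2f (-0.17), Dcun1d1 (-0.19) and Senp8 (-0.38) lay farther from 0 than without it. None of these genes was called. What part of the values comes from transcript length was not tested.

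**Figure D4:**
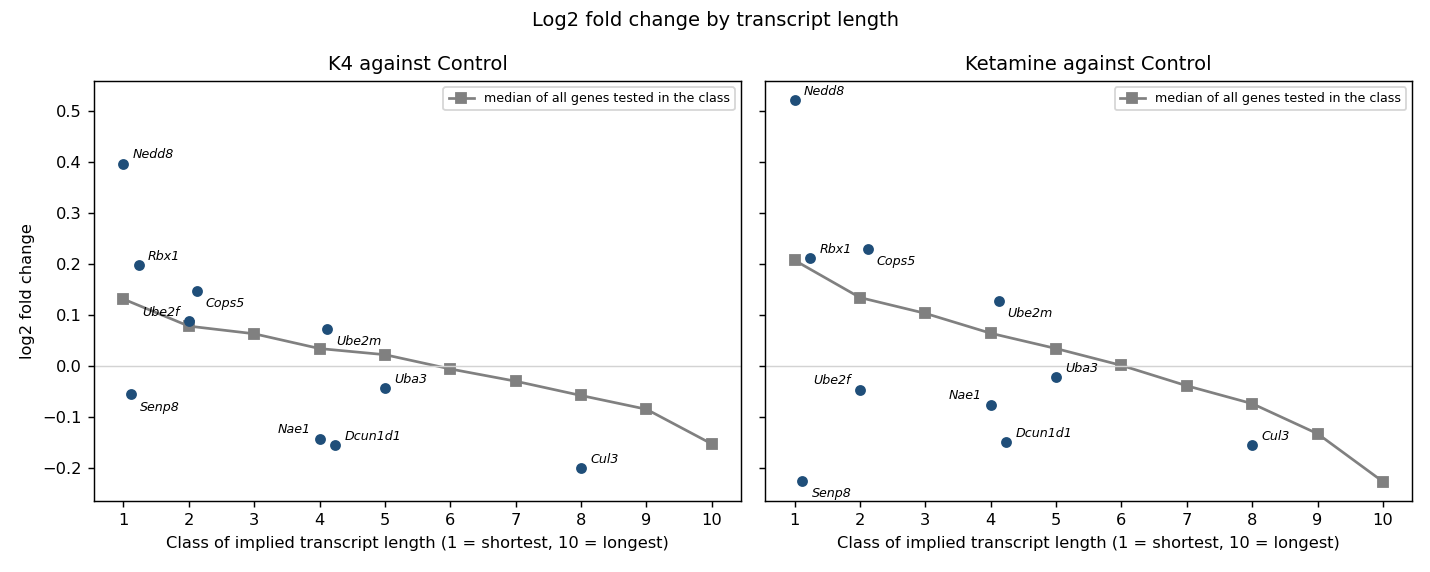
Log2 fold change against the class of implied transcript length (1 = shortest, 10 = longest) for K4 against Control and Ketamine against Control, with the neddylation genes as labelled points (shifted sideways where they share a class) and the median of all genes in each class as grey squares. The grey line descends from 0.13 to -0.15 for K4 and from 0.21 to -0.23 for Ketamine. Nedd8, which was chosen for its difference between Ketamine and Control, lies above it in both panels.

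The balance of Nedd8 to the rest of the machinery was described as TPM ratios within a library, which the scaling of a library leaves unchanged. The Nedd8 to Uba3 ratio was 3.68, 3.78 and 4.03 in K4, 4.29, 4.06 and 4.02 in Ketamine and 2.70, 2.88 and 2.89 in Control libraries. The Nedd8 to Cul3 ratio was 2.94, 2.89 and 3.04 in K4, 3.09, 3.23 and 3.20 in Ketamine and 1.88, 2.05 and 1.92 in Control libraries. Both ratios were higher in every library of treated rats than in any Control library, as was the Nedd8 to Rbx1 ratio, at 1.88 to 2.09 in K4, 2.03 to 2.31 in Ketamine and 1.66 to 1.79 in Control libraries. Cul3 over Rbx1 averaged 0.67 ± 0.0185 in K4, 0.678 ± 0.0618 in Ketamine and 0.886 ± 0.0585 in Control libraries (SD, n = 3 each). Cul3 contributed 22.0% of the summed TPM of 8 cullin genes in K4, 22.0% in Ketamine and 22.9% in Control libraries. That sum was 327 ± 8.01 TPM in K4, 323 ± 4.97 TPM in Ketamine and 323 ± 48.9 TPM in Control libraries. Length differs between the genes of each ratio, so the trend described above also enters these values. Nedd8 was chosen for its difference between Ketamine and Control. Its ratios repeat that choice and are a description with no test.

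Over the 9 libraries, the log2 CPM of Rbx1 (r = 0.83) and Cops5 (r = 0.79) were the most like Nedd8 among the other members, and those of Cul3 (r = -0.70) and Dcun1d1 (r = -0.75) ran the other way. Ube2m had r = 0.42, and Ube2f, Uba3, Nae1 and Senp8 lay between -0.10 and -0.35. Among 8512 well expressed genes (mean log2 CPM of at least 4), the 5 with the highest Pearson correlation with Nedd8 were Cfl1 (0.984), Arntl (0.981), Nudc (0.980), Ypel3 (0.979) and Mrpl43 (0.979). Cfl1 encodes the actin-severing protein cofilin, Arntl the clock factor BMAL1, Nudc a dynein-associated cochaperone and Mrpl43 a mitochondrial ribosomal protein. Implied transcript lengths were 1.26 kb for Cfl1, 1.46 kb for Nudc, 1.06 kb for Ypel3 and 0.763 kb for Mrpl43, while Arntl was longer at 3.29 kb. The libraries form groups that differ in Nedd8, so the points are not independent and the correlations carry no p.

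Genes next to the members in the RefSeq table of GRCr8, used for names and order only, were also read, because 5 of the 10 members overlap another gene there and the strand setting of the counts is not given. Nedd8 overlaps Gmpr2, which encodes GMP reductase, and Gmpr2 had log2 fold changes of 0.042 for K4 and 0.009 for Ketamine against Control. The mean CPM of Gmpr2 was 18.5 in K4, 18.1 in Ketamine and 18.0 in Control libraries. Mdp1, on the other side of Nedd8, had 0.30 for K4 (edgeR adjusted p 0.115) and 0.23 for Ketamine (0.161). Cops5 overlaps Cspp1, at -0.13 for K4 and 0.017 for Ketamine. Uba3 overlaps Arl6ip5, Ube2m overlaps Chmp2a and Cul3 overlaps an uncharacterised locus, so reads of these genes may be shared between partners.

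The wider pathway was read from lists chosen with earlier results known. Of 15 other ubiquitin-like modifiers, 2 rose in K4 and 0 fell, with a median log2 fold change of 0.11. In Ketamine 6 rose and 0 fell, with a median of 0.23. The background for these directions was 2.27% higher and 3.8% lower for K4, and 6.95% higher and 9.75% lower for Ketamine. Ubb, which encodes a polyubiquitin precursor, rose by a log2 fold change of 0.26 in K4 (SE 0.066, edgeR adjusted p 0.0395) and 0.37 in Ketamine (0.00314). With the length offset its adjusted p was 0.192 for K4 and 0.0644 for Ketamine. In Ketamine Gabarap, an ATG8-family autophagy protein, rose by 0.24 (edgeR adjusted p 0.0143) and Urm1, a tRNA-thiolation modifier, by 0.33 (0.0154), both without a call under the offset. The modifiers are short genes, with a median length of 1.28 kb against 2.93 kb over all genes, and with the offset their median log2 fold change was 0.039 in K4 and 0.050 in Ketamine.

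The enzyme and cullin lists were read beside the same background, 2.27% higher and 3.8% lower in K4 and 6.95% higher and 9.75% lower in Ketamine. Among 13 other E1 and E2 genes 0 were called in K4. In K4 the smallest p belonged to Uba6, the second ubiquitin-activating enzyme, at -0.24 (0.0507). Of 11 other NEDD8 conjugation genes, 0 were called in K4, where Rnf7, the RING partner of CUL5, had 0.28 (0.118). In Ketamine Rnf7 rose by 0.34 (edgeR adjusted p 0.0356) and Cand1, the exchange factor that binds cullins free of NEDD8, fell by 0.25 on the log2 scale (0.0359). With the length offset neither was called, Rnf7 at 0.21 (0.209) and Cand1 at -0.14 (0.245). Of 7 other cullins, 1 fell in each drug group, Cul5, with a log2 fold change of -0.23 in K4 (edgeR adjusted p 0.0397) and -0.21 in Ketamine (0.0331). With the length offset Cul5 had -0.096 in K4 (0.374) and 0.007 in Ketamine (0.963). The median of the 7 cullins was -0.11 in K4 and -0.15 in Ketamine without the offset, against 0.021 in K4 and 0.019 in Ketamine with it, and their median length was 4.65 kb.

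Of the 9 other COP9 signalosome genes, 1 rose in K4 and 3 in Ketamine, against 2.27% and 6.95% of all genes tested. The list medians were 0.087 in K4 and 0.21 in Ketamine. With the length offset these medians were 0.031 and 0.068. Gps1, which encodes subunit CSN1, had 83.2, 89.3 and 87.9 CPM in K4, 84.0, 97.3 and 92.4 CPM in Ketamine and 71.4, 73.0 and 73.1 CPM in Control libraries. No Control library reached a library of treated rats. Such separation from Control, in the higher direction, was found for 13.3% of all genes tested in K4 and 16.9% in Ketamine. Gps1 rose by a log2 fold change of 0.26 in K4 (SE 0.063, edgeR adjusted p 0.0316) and 0.33 in Ketamine (0.0041), and with the offset its adjusted p was 0.0598 and 0.0157. In Ketamine Cops7a rose by 0.23 (0.0229) and Cops8 by 0.21 (0.0322), and neither was called with the offset (0.158 and 0.272).

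Of 30 cullin ligase adaptors, 2 rose and 1 fell in K4, and 4 rose and 3 fell in Ketamine, with medians of -0.064 and -0.015. The share of all genes tested was 2.27% higher and 3.8% lower in K4, and 6.95% higher and 9.75% lower in Ketamine. Kctd13, a CUL3 adaptor, rose by 0.27 in K4 (edgeR adjusted p 0.025) and 0.39 in Ketamine (0.00169). Klhl9, another CUL3 adaptor, had -0.29 in K4 (0.0145) and -0.19 in Ketamine (0.0347). Fem1b, a CUL2 adaptor, had -0.44 in Ketamine (edgeR adjusted p 0.00316), which stayed called with the offset (0.00551). In K4 Asb6, an adaptor of the SOCS-box family, rose by 0.33 (0.0433), and in Ketamine Klhl22 rose by 0.23 (0.0332). A list of 10 genes held targets of Nrf2, a factor that CUL3 ligases turn over, and its own gene Nfe2l2. Of these, 0 rose and 1 fell in each drug group: Slc7a11, the cystine transporter, at -0.65 in K4 (0.0203) and -0.89 in Ketamine (0.00183). With the length offset the calls of Kctd13 (0.0102) and Slc7a11 (0.0172) in Ketamine and of Klhl9 in K4 (0.0472) also stayed. Those of Kctd13 (0.0665), Asb6 (0.0726) and Slc7a11 (0.0755) in K4 and of Klhl22 (0.0638) and Klhl9 (0.3) in Ketamine did not. Of the named pathway calls, those of Ubb, Gps1, Kctd13, Fem1b and Slc7a11 in Ketamine remained in all 9 fits that left out a library, and the others in 1 to 7 of them. For K4 against Ketamine 0 genes of these lists were called by edgeR, and the smallest adjusted p was that of Fem1b, 0.327, at a log2 fold change of 0.31.

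**Figure D5:**
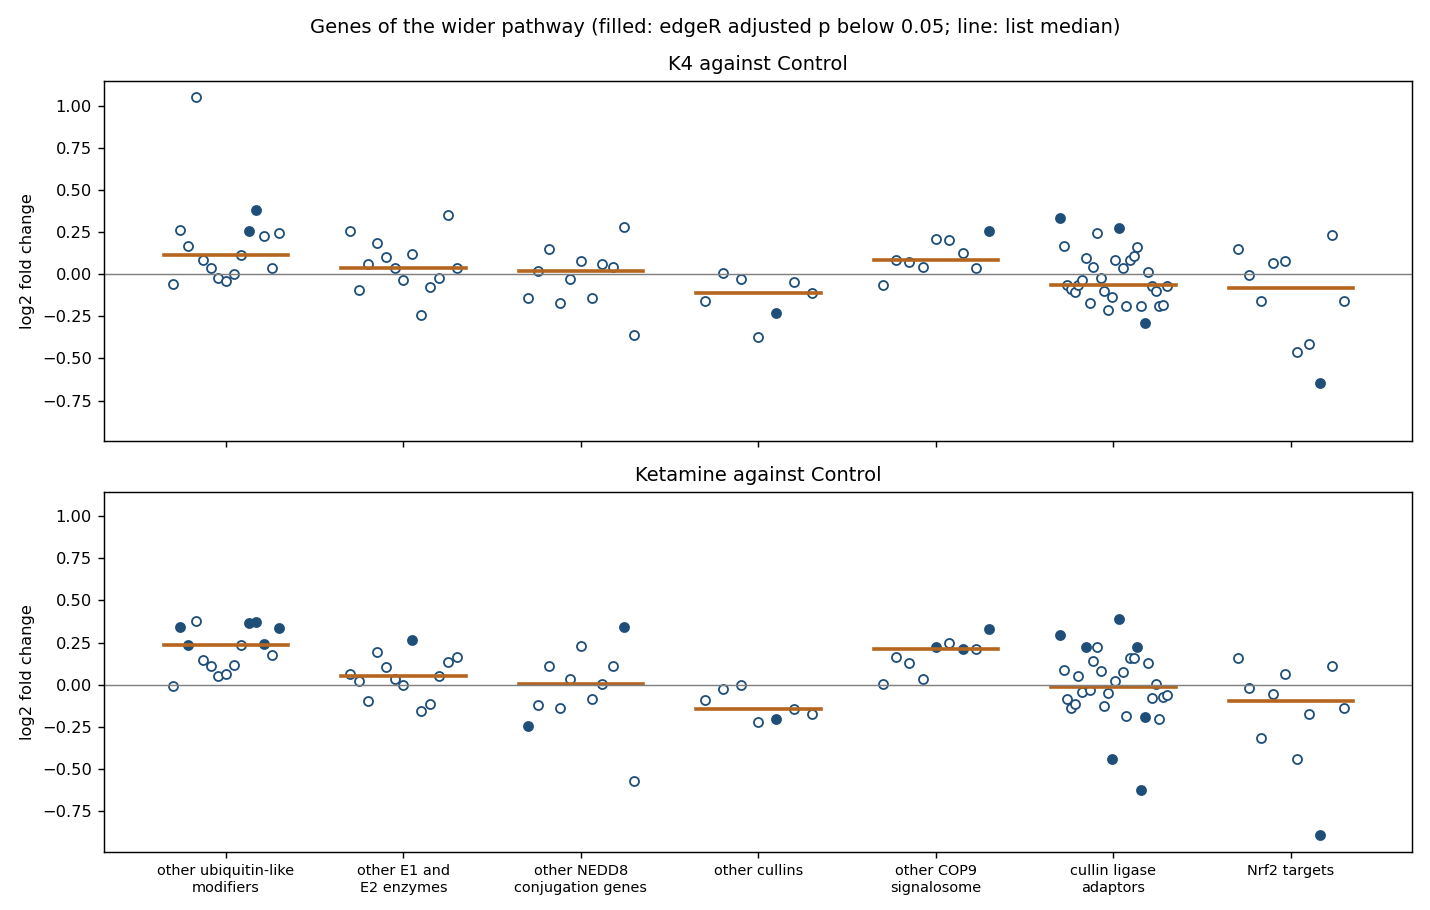
Log2 fold change of each gene in 7 lists around neddylation, K4 against Control above and Ketamine against Control below, with called genes filled and each list's median as a line. The other modifiers (medians 0.11 and 0.23) and the other COP9 subunits (0.087 and 0.21) lie above 0, and the other cullins (-0.11 and -0.15) below; with the length offset, not plotted, these medians were 0.039 and 0.050, 0.031 and 0.068, and 0.021 and 0.019.

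Library totals were 28495399 to 32735785 counts in K4, 27122207 to 33837450 in Ketamine and 40863756 to 42731004 in Control libraries, so depth and group move together. Cell-type markers were read beside a background, over all genes tested, of 2.27% called higher and 3.8% lower in K4. In Ketamine that background was 6.95% higher and 9.75% lower. Neuron markers summed to 4660 to 5070 CPM in K4, 4920 to 4980 in Ketamine and 4000 to 5130 in Control libraries. Of these markers, 0 of 10 were called in K4 while 2 of 10 fell in Ketamine. Astrocyte markers summed to 3810 to 4350 CPM in K4, 3740 to 3960 CPM in Ketamine and 4140 to 6540 CPM in Control libraries, with 2 of 10 called lower in K4 and 6 of 10 in Ketamine. Called lower were also 2 of 6 oligodendrocyte precursor, 1 of 8 microglial and 2 of 8 vascular markers in K4, and 5 of 6, 4 of 8 and 3 of 8 of the same lists in Ketamine. Oligodendrocyte markers summed to 2340 to 3160 CPM in K4, 1640 to 2120 CPM in Ketamine and 1830 to 2980 CPM in Control libraries, with 1 of 10 called higher in K4 and 1 of 10 lower in Ketamine. Striatal markers summed to 182 to 194 CPM in K4, 176 to 189 CPM in Ketamine and 172 to 187 CPM in Control libraries, with 2 of 7 called higher in K4 and 1 of 7 in Ketamine. Blood markers summed to 105 to 186 CPM in K4, 71.7 to 87.9 CPM in Ketamine and 91.1 to 172 CPM in Control libraries, with 0 called. Meningeal markers summed to 54.9 to 204 CPM in K4, 124 to 186 CPM in Ketamine and 72.3 to 115 CPM in Control libraries. Choroid plexus and ependymal markers were near 0, at 1.63 to 3.07 CPM over all libraries, with Folr1 and Tmem212 at 0. The part of depth and cell makeup in the neddylation values was not tested, and in bulk tissue fewer cells of a type and less RNA per cell cannot be told apart.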

How the data were processed

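The submitters' processing notes name build rn6 and the tools StringTie 2.1.3b, HISAT2 2.1.0, Trimmomatic and bcl2fastq 2.20.0, without roles. How reads were counted, and with which strand setting, is not given in the sources used here. Libraries were made with a stranded poly(A) kit, per the labels. The authors deposited raw counts per gene for all 9 libraries and, per the file headers, FPKM and TPM per library. Tests on these counts used edgeR 4.0.16 under R 4.3.3 (TMM, filterByExpr with minimum count 10 and total 15, robust quasi-likelihood fit of all 9 libraries in 3 groups, Benjamini-Hochberg over 18047 genes). Of 37991 genes, 12287 had no count. The common biological coefficient of variation was 10.2%. The method was tested on simulated counts without a length trend, so that test does not bear on the trend described above. Log2 CPM used a prior count of 2. Implied length was count over FPKM and library total, and the length offset was a lowess fit (span 0.3) per library. TPM were used for levels between genes and in limma 3.58.1 on log2(TPM + 1), on log2(TPM + 0.1) and without a filter on low TPM. DESeq2 1.42.0, upper-quartile scaling, a fit without low-count filter, fits of the compared groups alone, a replicate block and each library left out were alternatives. Of the pathway genes, up to 4 called genes by smallest p per list and comparison are named, or, in lists without a call, the gene of smallest p. The members, lists and motifs were chosen with earlier results of these data known. All 182 list entries matched, 4 of them through RefSeq names. Results of some listed genes are not reported here.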

Additional observations from a re-analysis of the deposited data

How the results depend on the processing

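Of 540 values of the 10 neddylation genes under alternatives, 505 kept their side of the threshold (49 of them with the other sign, all uncalled), 29 lost a call, 6 gained one and 0 reversed a call. Nedd8 counts here among the 10 members. It was chosen for its difference in these libraries, so the member counts hold it by choice and are no separate evidence. Against Control, wherever 1 member was called, it was Nedd8. For K4 against Control, edgeR called 1095 genes (6.07% of those tested) and 1 of the 10 members. DESeq2 called 1839 and 2, the length offset 430 and 1, the compared groups alone 452, and limma on TPM without filter 1 and 0. Leaving out 1 library gave 174 to 1548 genes and 1 to 3 members, with 174 without Control replicate 1, 239, 346 and 228 without K4 replicates 1, 2 and 3, and 698 without Ketamine replicate 3. For Ketamine against Control, edgeR called 3013 genes (16.7% of those tested) and 3 of the 10 members. The length offset called 1375 and 1. Limma called 1840 on log2(TPM + 1), 1837 on log2(TPM + 0.1) and 537 without filter, each with 1 member. With no low-count filter and with the compared groups alone, 1 member was left. Leaving out 1 library gave 1177 to 3191 genes and 1 to 3 members, with 1811 without Control replicate 1, 1177 without Ketamine replicate 2 and 1556 without Ketamine replicate 3. For K4 against Ketamine, with 0 genes and 0 members, DESeq2 called 71 genes, no filter 6, the compared groups alone 27 and limma on TPM 2, 2 and 1, and leaving out 1 library gave 0 to 27 genes (27 without Ketamine replicate 1, 12 without Control replicate 2) and 0 members. At an unadjusted p below 0.05 edgeR had 1648 genes there. Cul5, Elob and Ubl5 reversed for Ketamine under the length offset, at 0.007, -0.029 and -0.017; the cause was not tested. TPM moved the median of all genes by 0.16 for K4 and 0.12 for Ketamine against Control, and under it Nae1, Uba3 and Dcun1d1 turned positive in both, Senp8 in K4 and Ube2f in Ketamine, all uncalled. Same-numbered libraries deviated together only weakly (r 0.002 to 0.106, 1 of 9 over 0.1, against -0.157 to 0.069 for other pairs), though the best match had the same number in 14 of 18 cases. This is a hint from the data, and the numbers were not taken to pair libraries. A fit with a replicate block called 1168, 3191 and 1 genes and 1, 2 and 0 members. Senp8, with 84 to 173 reads a library, had the widest intervals of the members.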
